A study of Mus musculus with 2 samples.

Results

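Amino acid transporter genes were taken as all genes whose symbol begins with Slc1a, Slc6a, Slc7a, Slc36a, Slc38a or Slc43a, together with Slc3a1 and Slc3a2. The rule uses names only, and it found 64 genes among the 19938 with a probe set of their own on the array. Of these, 62 are solute carrier genes and 2, Slc7a6os and Slc6a19os, are opposite-strand neighbours that carry a transporter's name and encode no carrier. The carriers of the Slc6 group that move GABA, monoamines, taurine or creatine, and the nucleobase carrier Slc43a3, fall under the rule as well. A total of 31 genes, 30 of them carriers, had at least 1 value at or above 4.39 log2 units, the median over the whole table, which served as a floor. The other 33 genes lay below it in both pools.

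The RNA came from tibialis anterior muscle that was regenerating 7 days after an injection of 50 µl of 10 µM cardiotoxin, a venom toxin that kills muscle fibres while sparing the satellite cells that rebuild them. The mice were of the 129Sv/C57BL6 strain, aged 2 to 4 months and of both sexes, and were either Mef2a +/+ (wild type) or Mef2a -/-, the homozygous knockout of the muscle transcription factor gene Mef2a. RNA of 5 injured muscles was pooled within each genotype, and each pool was measured on 1 array, so that no value has a replicate error and no test is possible. Every comparison describes the 2 pools only.

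Values are log2 RMA expression values, and a difference is the labelled knockout value minus the wild type value. The Mef2a transcript read 9.06 in labelled knockout and 8.92 in wild type muscle, so that it was no lower there. Which part of the gene is deleted is not given in the sources used here, so that its probe set cannot check the labels, and all directions rest on them. The markers of muscle fibres were abundant in both pools, with Ckm, the muscle creatine kinase gene, at 12.07 in the wild type and 11.89 in the labelled knockout pool. All 16 fibre markers read lower in the labelled knockout pool, with a median of -0.19, and 1 of them, the fast myosin gene Myh2 (-0.62), was past 1.5-fold. The next largest were Mb (-0.53) and Myoz1 (-0.38). Over all 11787 genes at the floor, 5245 read lower and 1.9% were at least 1.5-fold lower. In the same RNA, 16 of 18 macrophage and monocyte markers were at least 1.5-fold higher, beside 6.45% of all genes at the floor. Their median was 1.06, with a range from 0.04 to 2.11. The largest differences were those of the scavenger receptor gene Msr1 (2.11), Gpnmb (1.96) and the integrin gene Itgam (1.80). Of 11 neutrophil markers, 2 reached the floor, Lcn2 (0.94) and Csf3r (0.38), both higher in the labelled knockout pool. The other 9, S100a8, S100a9 and Ly6g among them, lay below the floor in both pools. Of these 9, 7 read higher and 2 lower, where 1944 of all 8151 genes below the floor read higher. None of 8 lymphocyte markers, Cd3e, Cd8a and Ms4a1 among them, reached the floor. In pooled whole muscle, more cells of a type and more RNA per cell cannot be told apart.

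Cells take up amino acids through families of membrane carriers that differ in what they move and what drives them. Light chains of the Slc7 family pair with a heavy chain and swap one amino acid for another, sodium-driven carriers of the Slc38 and Slc1 families load cells with glutamine, alanine and related amino acids, and proton-driven carriers of the Slc36 family and some Slc38 members move amino acids across lysosomal membranes. Muscle is a main store and source of glutamine for the body, and regenerating muscle also holds phagocytes that digest dead fibres in their lysosomes.

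Among the 31 genes at or above the floor, 6 were at least 1.5-fold higher in the labelled knockout pool: Slc7a8, Slc36a1, Slc6a6, Slc36a4, Slc6a12 and Slc38a6. That is 19.4% of them, where 6.45% of all 11787 genes at or above the floor were as much higher. Slc6a12 reached the floor only through the pool in which it was higher, and with the floor set on the mean of both values 5 of 30 (16.7%) remained, beside 6.34% of all genes. Without the carriers of monoamines, GABA, taurine, creatine and nucleobases, Slc6a6 and Slc6a12 dropped out and 4 of 27 (14.8%) were at least 1.5-fold higher. Slc38a3 alone was at least 1.5-fold lower, 3.23% of the 31 against 1.9% of all genes, a count of 1 that is close to the background. At 2-fold the numbers were 0 higher and 1 lower, against 1.7% and 0.187% of all genes. The difference was above 0 for 25 of the 31 (80.6%), as it was for 53.3% of all genes at the floor. With a loess trend on mean expression removed, 23 of the 31 (74.2%) and 50.3% of all genes lay above 0. The median difference of the 31 was 0.24 with quartiles of 0.06 and 0.50, beside a median of 0.03 with quartiles of -0.15 and 0.23 over all genes.

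These numbers hold for the genes at the floor and not for the whole family. Over all 64 genes the median difference was -0.04, against -0.03 over all 19938 genes, since 27 of the 33 transporter genes below the floor read lower in the labelled knockout pool. Low values did so in general: the median over all 8151 genes below the floor was -0.16, and over the 33 transporter genes it was -0.22. No other gene of the 31 than Slc6a12 reached the floor in 1 pool alone. Other solute carrier genes, with symbols that begin with Slc but fall outside the rule, gave a median of 0.07 over 172 genes at the floor. Of these, 15 (8.72%) were at least 1.5-fold higher and 6 (3.49%) as much lower.

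**Figure D1:**
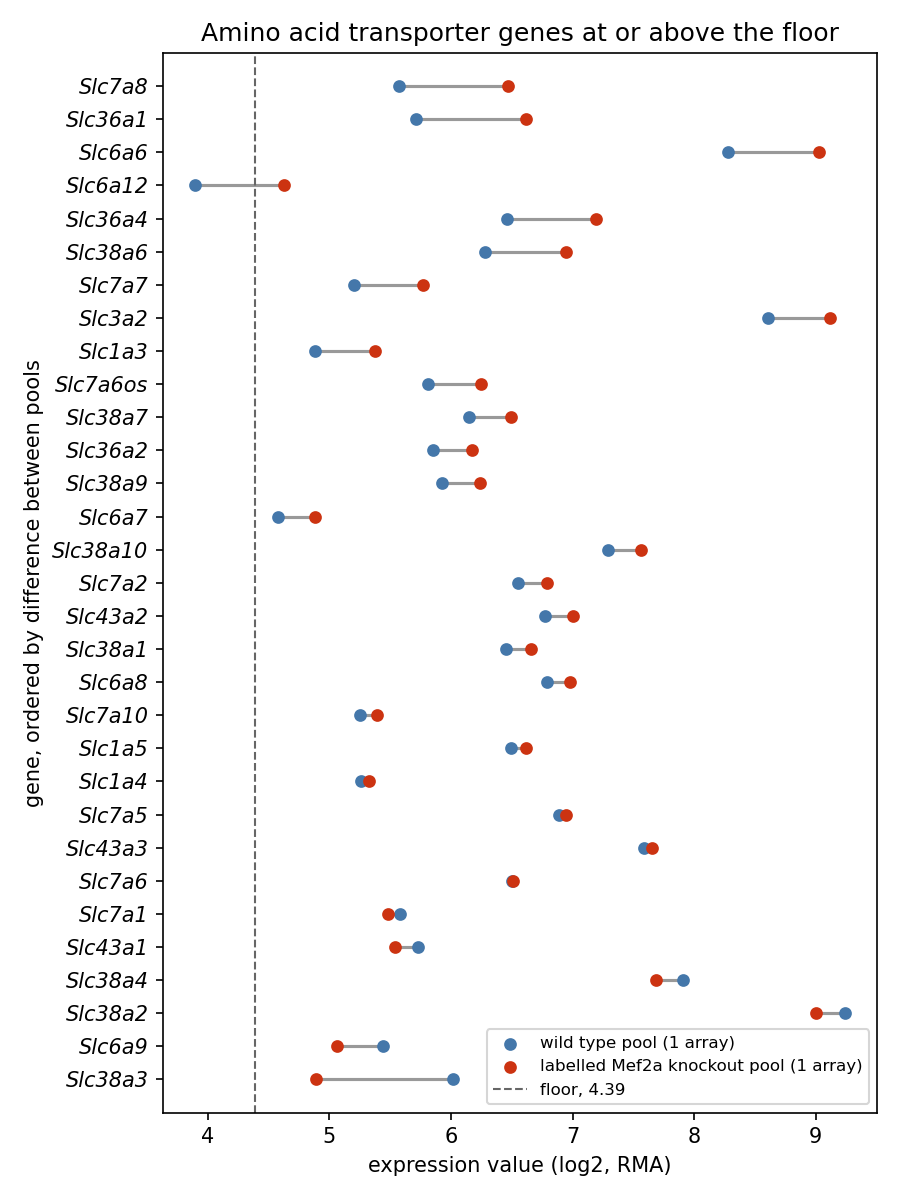
Expression values of the 31 amino acid transporter genes with a value at or above the floor (dashed line, 4.39). Each row is a gene, and the points are the log2 RMA values of the wild type pool (blue) and the labelled knockout pool (red), with 1 array each and no error bars. The widest gap to the right is that of Slc7a8 (5.57 and 6.47), and the widest to the left that of Slc38a3 (6.02 and 4.89).

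Of the exchangers that need a heavy chain, only Slc7a8 among the genes at the floor was past 1.5-fold. Slc3a2 encodes the heavy chain 4F2hc (CD98), which brings light chains to the cell surface, and read 8.61 in wild type and 9.12 in labelled knockout muscle, a difference of 0.51. Slc3a1, the heavy chain of kidney and gut, lay below the floor in both pools (3.49 and 3.09). Of 9 light chain genes other than Slc7a11, 5 reached the floor, and each of these 5 had a positive difference, with a median of 0.14.

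Slc7a8, which encodes the light chain LAT2 for small and large neutral amino acids, read 5.57 in wild type and 6.47 in labelled knockout muscle. This 1.87-fold difference was the highest positive one among the transporter genes at the floor and the 267th highest of 11787 genes. Slc7a7, the light chain y+LAT1 that exports cationic amino acids in exchange for neutral ones, read 5.20 and 5.77 in the same order, a 1.48-fold difference just inside the limit. The next 2 light chains read nearly the same in both pools. Slc7a5, the leucine carrier LAT1, read 6.89 and 6.95, and Slc7a6, the light chain y+LAT2, read 6.50 and 6.51. With the loess trend removed, their differences turned to -0.01 and -0.05. Slc7a10, the carrier Asc-1 for small neutral amino acids, differed by 0.14 (5.25 and 5.39). Of the 5 light chains at the floor, only Slc7a8 was past 1.5-fold.

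Slc7a11 encodes xCT, the light chain that imports cystine for glutathione synthesis in exchange for glutamate. It read 2.42 in wild type and 4.01 in labelled knockout muscle, a difference of 1.59 on the log2 scale, larger than that of any other transporter gene in size. Both values lay below the floor, so it is not counted above and its fold is poorly bounded. Olfactory receptor genes, which muscle is not known to use, give a view of background on this array: of 1027, 2.04% had a higher value that reached 4.01. The value of Slc7a11 in the labelled knockout pool lay above their 95th percentile of 3.68 and that in the wild type pool below it.

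The Slc7a11 promoter is shown because it holds a known type of amino acid response element, to which ATF4 and related factors bind. The 250 bases before the annotated start, from RefSeq on GRCm38.p6 (chr3:50443614-50443863, minus strand), carry 2 matches to TGATGNAA, searched on both strands and given in capitals, 1 on each strand.
Slc7a11: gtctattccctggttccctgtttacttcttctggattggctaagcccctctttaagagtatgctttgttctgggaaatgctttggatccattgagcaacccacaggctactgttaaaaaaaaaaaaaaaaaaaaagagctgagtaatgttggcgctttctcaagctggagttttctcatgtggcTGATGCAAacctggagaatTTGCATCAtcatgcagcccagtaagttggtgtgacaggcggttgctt
The motif was found in such windows of 3.91% of 27025 genes, and in those of 3 of the 47 transporter genes with a window in the table. Besides Slc7a11, these were Slc7a7, with a difference of 0.57, and Slc6a21 (-0.22, below the floor). A match describes the letters of the window and is not a measured binding site.

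Genes that respond to ATF4 and to lack of amino acids lay around 0 as a list. Of 20 at the floor, 6 (30.0%) had a positive difference, beside 53.3% of all genes at the floor, and 12 a negative one. Only Nupr1, a stress-induced chromatin protein gene (0.75), was at least 1.5-fold higher, and Vldlr, a lipoprotein receptor gene (-0.68), was as much lower. The median was -0.04, with Atf4 itself at 0.14, the asparagine synthetase gene Asns at -0.12 and Psph, which makes serine, at -0.53. Cytosolic aminoacyl-tRNA synthetase genes, which charge tRNAs, had a median of 0.02 over 18 genes, with Mars1 at -0.28, Hars at 0.21 and Cars at -0.18. Glutathione and NRF2 target genes had a median of 0.19 over 12 genes at the floor. Of these, 10 (83.3%) had a positive difference, beside 53.3% of all genes at the floor. Hmox1, the heme oxygenase gene that macrophages use to break down heme, was 1.60-fold higher and the only one of the 12 past 1.5-fold. The listed gene below the floor, Nqo1, read 3.89 in wild type and 3.23 in labelled knockout muscle, a difference of -0.66. Slc48a1, a heme carrier, differed by 0.43 and Nfe2l2, which encodes NRF2, by 0.42. Slc7a11 is itself a known target of both factors. The glutathione synthesis genes Gclc (0.13), Gclm (0.10) and Gss (0.15) differed by little.

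Among the Slc36 genes and the Slc38 genes outside systems A and N, which include carriers at the lysosome, Slc36a1, Slc36a4 and Slc38a6 were at least 1.5-fold higher in the labelled knockout pool. The other 4 at the floor had positive differences of at most 0.34, Slc38a9 only on its brighter probe set. The medians were 0.73 over 3 Slc36 genes and 0.32 over 4 Slc38 genes. Slc36a1 encodes PAT1, a proton-coupled exporter of small neutral amino acids from lysosomes, and read 5.71 in wild type and 6.62 in labelled knockout muscle, a 1.87-fold difference. Slc36a4, a high-affinity carrier of tryptophan and proline, read 6.46 and 7.19, a 1.66-fold difference. Slc36a2, a carrier of glycine, proline and alanine and the direct neighbour of Slc36a1 in the genome, differed by 0.32 (5.85 and 6.17). Slc36a3, the next gene of that cluster, was below the floor in both pools, with a difference of -0.03. The neighbours of this cluster thus differed by unequal amounts.

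Slc38a6 read 6.28 in wild type and 6.95 in labelled knockout muscle, a 1.59-fold difference. Slc38a7, a lysosomal glutamine exporter, read 6.15 and 6.49, a difference of 0.34. Slc38a9, which reports lysosomal arginine to the growth kinase complex mTORC1, differed by 0.31 on the probe set with the higher mean (5.93 and 6.24). Its other probe set read 5.11 and 5.08, a difference of -0.02, so that the direction for Slc38a9 depends on the probe set. Slc38a10 differed by 0.27 (7.29 and 7.56). Of this subgroup only Slc38a6 was past 1.5-fold.

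The promoters of Slc36a1 and Slc38a7 are shown because lysosomal genes often carry the letters CACGTG. These are the core of the site that TFEB and related factors bind. Slc38a7 was also the only transporter gene with a MEF2 box among the 21 at the floor that have a window. The other genes at the floor, Slc38a3 among them, have no window and were not searched. CACGTG reads the same on both strands, and the MEF2 box is the known AT-rich site of the MEF2 factors. Both windows are the 250 bases before the annotated start from RefSeq on GRCm38.p6, at chr11:55204090-55204339 on the plus strand and chr8:95853492-95853741 on the minus strand. Capitals mark CACGTG in both, and in Slc38a7 also the MEF2 box, which comes first.
Slc36a1: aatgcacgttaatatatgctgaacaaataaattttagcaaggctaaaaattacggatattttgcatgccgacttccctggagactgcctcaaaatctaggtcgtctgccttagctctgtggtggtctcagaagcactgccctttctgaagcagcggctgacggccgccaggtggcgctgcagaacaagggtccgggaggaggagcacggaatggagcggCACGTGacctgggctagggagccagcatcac
Slc38a7: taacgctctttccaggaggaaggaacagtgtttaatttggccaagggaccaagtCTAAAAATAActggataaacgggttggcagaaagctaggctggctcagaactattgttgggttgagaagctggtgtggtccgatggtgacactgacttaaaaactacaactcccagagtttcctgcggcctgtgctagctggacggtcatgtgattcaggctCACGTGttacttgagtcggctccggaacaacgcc
CACGTG was found in the windows of 6.86% of all genes and of 9 of the 47 transporter genes that have a window. Of the 9, 3 were at the floor, and the third of these, Slc43a1, had a negative difference (-0.19). The other 6 were below the floor: Slc6a16 differed by 0.31, and Slc1a6, Slc6a3, Slc1a7, Slc7a14 and Slc38a5 by -0.05 to -0.43. The MEF2 box was found in the windows of 3.42% of all genes and of 3 of the 47, the others being Slc3a1 (-0.40) and Slc6a5 (-0.13), both below the floor. A count of 1 among the 21 at the floor is close to that background. Here too a match describes letters and is not a measured binding site.

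Genes that sense amino acids at the lysosome for mTORC1 also lay around 0. Of 32 at the floor, 13 had a positive difference, the median was -0.03, and 1 was past 1.5-fold. That gene was Fnip2, a partner of folliculin (2.02-fold higher), while the Rag GTPase gene Rragd differed by -0.55 and Castor1, an arginine sensor, by 0.52. Carriers of other families that move amino acids or related cargo had a median of 0.12 over 19 genes at the floor, and 3 (15.8%, beside 6.45% of all genes) were at least 1.5-fold higher. These were Mfsd12, needed for cysteine import into lysosomes (2.07-fold), Slc29a3, a nucleoside carrier (1.88-fold), and Slc15a3, a peptide and histidine carrier (1.74-fold). Other lysosomal carriers of the list differed less, with Ctns, the cystine exporter, at 0.29, Slc66a1, an exporter of cationic amino acids, at 0.04 and Slc15a4, a relative of Slc15a3, at 0.02. The 16 of 18 macrophage markers past 1.5-fold stand beside these values, and their part in the differences was not tested.

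**Figure D2:**
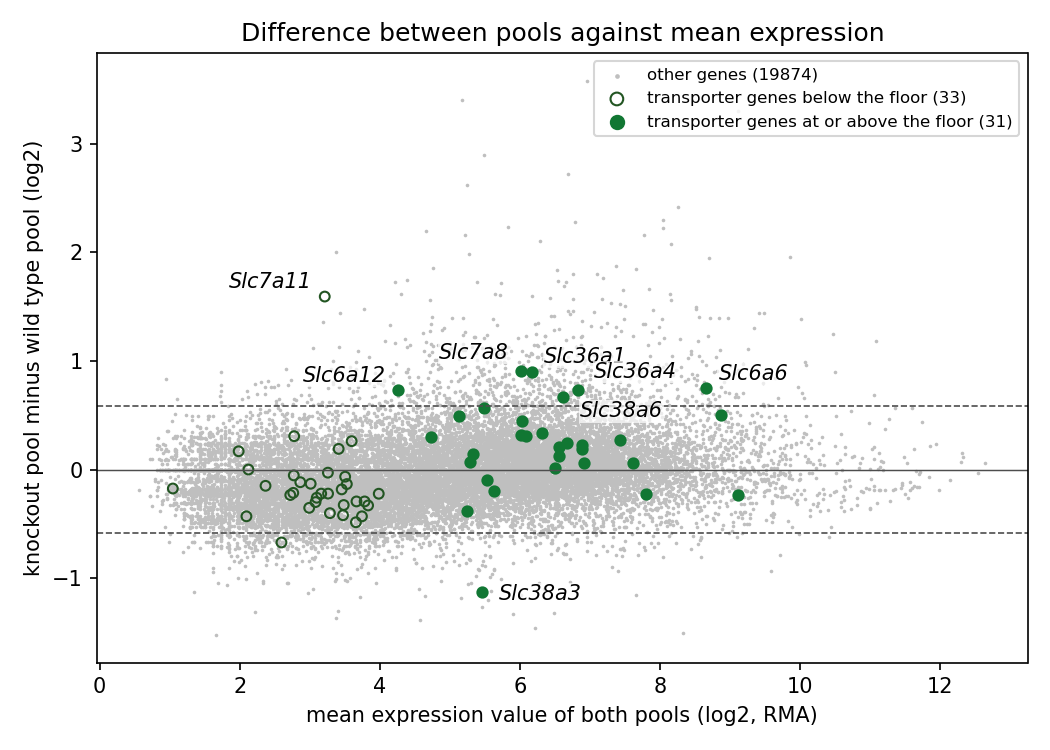
Difference between the pools (labelled knockout minus wild type, log2) against the mean value of both pools for 19938 genes. Filled green points are the 31 transporter genes at or above the floor, open points the 33 below it, grey points all other genes, and dashed lines mark 1.5-fold. Slc38a3 lies at -1.13 and Slc7a11 at 1.59, while most open points lie below 0.

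The lowest difference among the transporter genes was that of a glutamine carrier. Slc38a3 encodes SNAT3, a system N carrier that moves glutamine with sodium against protons, and read 6.02 in wild type and 4.89 in labelled knockout muscle. It was 2.18-fold lower, the 12th lowest difference of all 11787 genes. Slc38a5, the other system N gene, read 3.96 and 3.53 and was below the floor in both pools, with a difference of -0.43.

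System A carriers of alanine and glutamine differed by small amounts. Slc38a2, the member that cells induce when amino acids are short, read 9.24 in wild type and 9.0 in labelled knockout muscle, a difference of -0.23. Slc38a4 differed by -0.22 (7.91 and 7.69). Slc38a1 differed by 0.21 on its brighter probe set (6.45 and 6.66) and by 0.57 on the other (5.42 and 5.99). The 3 genes lie next to each other in the genome, and their differences did not share a sign. The small neutral exchangers Slc1a4 (ASCT1) and Slc1a5 (ASCT2, which takes up glutamine) were close to equal, with differences of 0.07 (5.26 and 5.33) and 0.13 (6.49 and 6.62).

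Among enzymes of glutamine, glutamate and alanine metabolism, none of 9 at the floor was past 1.5-fold. The difference was negative for 8 of the 9, as it was for 5245 of all 11787 genes, and the median was -0.26. The aspartate aminotransferase gene Got1 differed by -0.41, the proline oxidase gene Prodh by -0.37 and the glutamate dehydrogenase gene Glud1 by 0.36. Glul, which makes glutamine, differed by -0.01. These values stand beside a median of -0.19 for the fibre markers, whose part in them was not tested.

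The Slc6 carriers at the floor were those of taurine, betaine, creatine, glycine and proline. Slc6a6, the taurine carrier TauT, read 8.28 in wild type and 9.03 in labelled knockout muscle, a 1.68-fold difference. Slc6a12, the betaine and GABA carrier BGT1, read 3.90 and 4.63, a 1.66-fold difference from a wild type value below the floor. Its neighbour Slc6a13 read 4.10 and 3.87 and was below the floor in both pools. Both Slc6a6 and Slc6a12 carry organic osmolytes, but Slc6a12 reached the floor only through the labelled knockout pool, and Slc6a13 differed by -0.22. Osmolyte carriers were not examined as a group.

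The creatine carrier gene Slc6a8 differed by 0.18 (6.79 and 6.98). Slc6a9, the glycine carrier GlyT1, read 5.44 in wild type and 5.06 in labelled knockout muscle, a difference of -0.38 and the second lowest of the 31. Slc6a7, a proline carrier known from brain, lay close to the floor at 4.58 and 4.88. Of the 8 listed genes for creatine and taurine handling, only Ckb, the brain type creatine kinase gene, was past 1.5-fold (7.49 and 8.46, 1.95-fold higher). Cdo1, which starts taurine synthesis from cysteine, differed by 0.36, and the mitochondrial creatine kinase gene Ckmt2 by -0.20.

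Carriers of cationic and of large neutral amino acids without a heavy chain were all within 1.5-fold. The arginine carrier genes Slc7a1 (CAT1) and Slc7a2 (CAT2) differed by -0.10 (5.58 and 5.48) and 0.24 (6.55 and 6.79). Arginine and polyamine genes had a median of 0.12 over 7 genes at the floor and none past 1.5-fold, with Sat1, which acetylates polyamines, at 0.57, Oaz2, a brake on polyamine synthesis, at -0.36 and Asl, which makes arginine, at 0.25. Slc43a1 (LAT3) differed by -0.19 (5.73 and 5.54), Slc43a2 (LAT4) by 0.23 (6.77 and 7.00) and the purine nucleobase carrier gene Slc43a3 by 0.06 (7.59 and 7.65). Enzymes of branched-chain amino acid breakdown, which use leucine, isoleucine and valine, had a median of -0.08 over 19 genes with none past 1.5-fold. Bcat2, the mitochondrial aminotransferase gene that starts this pathway in muscle, differed by 0.58, just inside the limit, its regulator Bckdk by -0.40 and Ivd, an enzyme of leucine breakdown, by -0.28.

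Slc1a3 was the only glutamate carrier gene of 5 at the floor. It encodes GLAST, which clears glutamate in brain and is also found in macrophages, and read 4.88 in wild type and 5.38 in labelled knockout muscle, a difference of 0.50. Slc1a1 (-0.42), Slc1a2 (-0.13), Slc1a6 (-0.05) and Slc1a7 (-0.33) were below the floor in both pools. The noncarrier Slc7a6os read 5.81 and 6.25, a difference of 0.45, while its neighbour Slc7a6 differed by 0.01.

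The 33 genes below the floor included all 3 monoamine carriers and all 8 listed neutral and orphan Slc6 carriers, which are known mainly from nerve, kidney and gut. Besides Slc7a11, the largest differences in size were those of Slc6a20b (-0.67, from 2.93 to 2.26) and Slc38a8 (-0.49, from 3.90 to 3.41). Markers of Schwann cells and nerve gave a median of 0.09 over 6 genes at the floor, with differences of 0.91 for Egr2, 0.46 for Mbp and -0.27 for Ngfr. Endothelial markers had a median of -0.05 over 9 genes, with Vwf 1.79-fold higher, Kdr at -0.29 and Emcn at 0.23. Fibroblast markers had a median of 0.16 over 8 genes and none past 1.5-fold, with Fn1 at 0.47, Col1a1 at 0.23 and Col1a2 at 0.22. Adipocyte markers had a median of -0.05 over 6 genes at the floor, with Plin4 2.07-fold lower, Cidec at -0.39 and Adipoq at 0.10. Plin4 was the only one of them past 1.5-fold. Neutrophil markers reached the floor for 2 of 11 genes, Lcn2 (0.94) and Csf3r (0.38), and lymphocyte markers for none of 8. Markers of young fibres and satellite cells had a median of -0.13 over 10 genes, with Myh8 at -0.63, Myh3 at -0.44 and Mymk at 0.24.

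**Figure D3:**
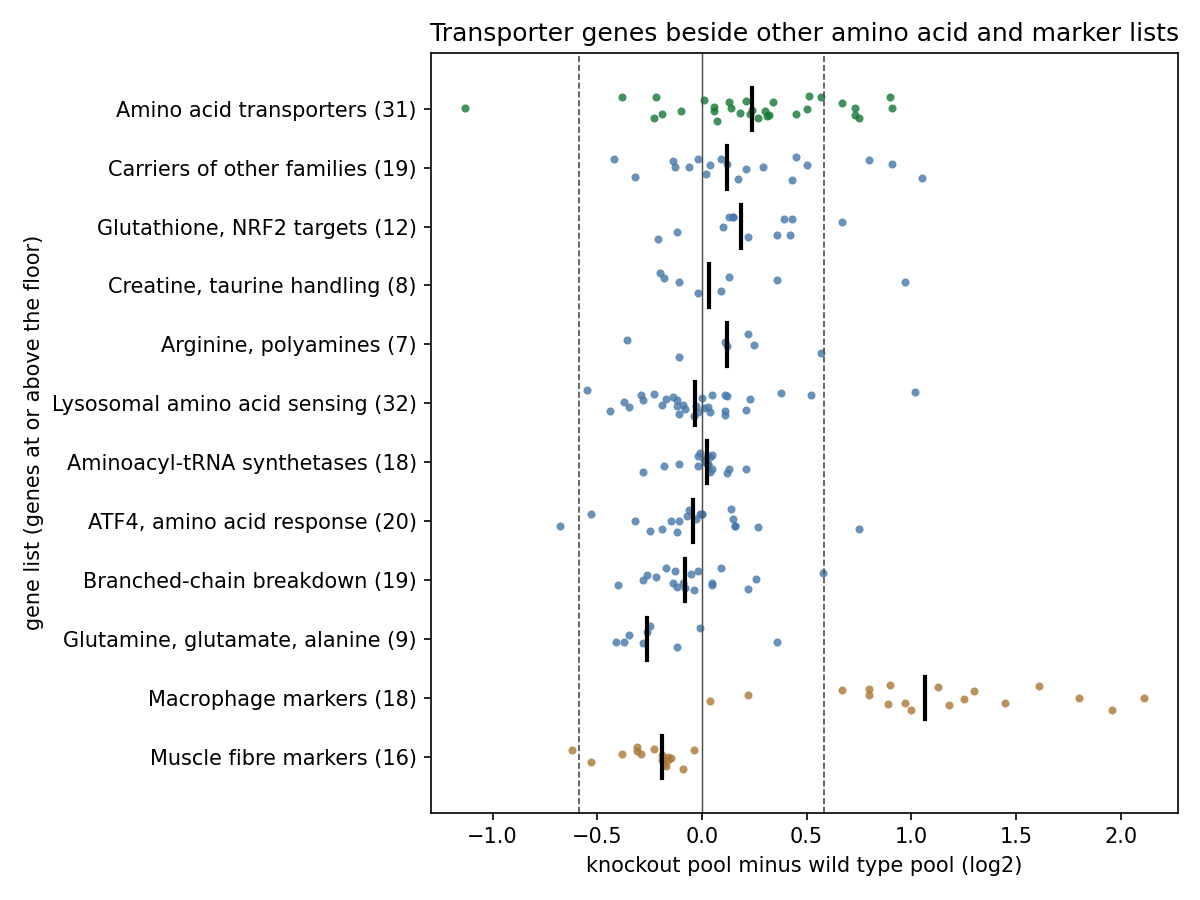
Differences between the pools (labelled knockout minus wild type, log2) for the genes at or above the floor of each list. Each point is a gene, spread vertically for view, black bars are list medians, dashed lines mark 1.5-fold, and numbers in brackets count genes. The 31 transporter genes have a median of 0.24, between those of the glutamine enzymes (-0.26) and the macrophage markers (1.06).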

How the data were processed

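Expression was measured on 1 Affymetrix array per genotype, each with RNA pooled from 5 mice. The authors deposited log2 values, which per the submitters' processing notes come from RMA as run by Affymetrix Expression Console; its version is not given in the sources used here. RMA corrects background, equalises the arrays by quantiles and summarises probe sets. After sorting, the arrays differ by at most 0.139, so a shift shared by most genes would not show. Differences near the floor may be understated, which was not tested. Low values also read lower in the labelled knockout pool in general, with a median of -0.16 over the 8151 genes below the floor.

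Of 35557 probe sets, 21789 have 1 gene symbol in the platform annotation, 1621 several and 12147 none; the last 2 kinds were left out. The probe set with the highest mean stood for each gene. All 64 transporter genes matched the RefSeq table of GRCm38.p6 by gene identifier. Among other list genes, 3 were matched by synonym and 18 not at all. Python 3.11.15, pandas 2.3.3, numpy 2.4.6 and statsmodels 0.14.6 (loess, span 0.3) were used. The counting code was run on simulated data with planted differences far past 1.5-fold and less noise than the spread seen here. That run cannot show how well differences close to the limit are counted. No test or p-value was computed. The robust SD of the difference over genes at the floor was 0.28; it mixes noise with true differences.

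Members and lists were chosen with earlier results of these data known. Named were all members at the floor, the 3 largest differences below it and up to 3 genes per list with the largest differences. Atf4, Asns, Gclc, Gclm, Gss, Nqo1, Ctns, Slc66a1, Slc15a4, Glul, Ckm and the markers below the floor were added after their values were seen. So were the other members below the floor (relatives of members described, or genes with a motif) and the choice of promoters. Probe sets of different genes were not compared in level, apart from the floor, the olfactory receptor background beside Slc7a11 and the fibre markers called abundant.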

Additional observations from a re-analysis of the deposited data

How the results depend on the processing

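Of 84 recomputed counts and medians of the transporter genes and their role groups, 76 kept their sign and stayed within 1.5 times the count, or within 0.28 log2 units of the median, given here. Counts were compared as numbers although the number of genes changed with the floor. Thus 29 of 59 with a higher value (49.2%, 25th percentile) and 30 of 64 (46.9%, no floor) counted as kept, against 25 of 31 (80.6%). Over all genes 45.2% and 41.3% were above 0. The shares at least 1.5-fold higher fell from 19.4% to 11.9% and 10.9%, beside 5.03% and 4.25% of all genes. The 0.28 exceeds the median of 0.24, so it cannot show a median to be stable. The number at least 1.5-fold lower was 2 with the floor at the 25th percentile or without a floor (Slc6a20b being added), and 0 with it at the 75th percentile. The median of the transporter genes turned to -0.03 with the floor at the 25th percentile and to -0.04 without a floor. At a limit of 1.3-fold, 10 of 31 were higher (32.3%) and 2 lower, beside 13.5% and 7.33% of all genes. At 2-fold 0 were higher, beside 1.7% of all genes. Removing the loess trend, centring on the median and the mean of all probe sets each left 6 higher and 1 lower. Of all genes, 5.85% to 6.41% were as much higher and 1.88% to 2.21% as much lower in these settings. The floor on the mean of both values left 5 of 30 higher, and leaving out carriers of monoamines, GABA, taurine, creatine and nucleobases 4 of 27. Leaving out the opposite-strand genes, an alternative chosen after seeing the data, left these numbers at 6 and 1 and the median at 0.24. Of 124 recomputed single differences, those of Slc38a1 (0.57) and Slc38a9 (-0.02) moved by more than 0.28, with the probe set of the lower mean. Only these 2 genes have 2 probe sets, so for the others the 2 probe set alternatives could not change the value. Centring shifted every difference by the same 0.026 and could not move any past 0.28. Only the loess removal could have moved the other genes, so the count is no measure of stability. No paired analysis was possible because each genotype has 1 array. For the same reason no array could be left out, and with 2 arrays the spread among mice or arrays is unknown.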
